A study of Mus musculus with 12 samples.

Results

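The genes described here build and load major histocompatibility complex (MHC) molecules. They were chosen by symbol, as B2m, H2-K1, H2-D1, H2-T23, Tap1, Tap2, Tapbp, H2-DMa, Cd74 and Ciita. Of the 10 symbols, 9 were found among the 11669 genes of the deposited table, and Tap1 is not analysed here. Of the 9 genes, 8 passed the filter on low values and were among the 8615 genes tested, and Ciita did not pass it. By function the set is wider than class I: H2-DMa, Cd74 and Ciita belong to class II presentation, and the results are ordered by role.

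Mouse cells given as TAMC under the cell line tag, an abbreviation that the labels leave unexplained, were given NP-D@MP, NP-D@M, NP@M or PBS for 24 h, and total RNA was sequenced. Each of the 4 groups has 3 libraries, and the letters NP, D, M and P are not spelled out in the labels. The study's title speaks of a nanodrug modified with an engineered cancer cell membrane and of CDKs, the cyclin-dependent kinases. The labels give marrow as the tissue and immune cell as the cell type, while the extraction protocol mentions retina, and 0 of 8 retina marker genes looked for were found in the table. The cells of all 4 groups carry the same labels apart from the treatment, and no strain, genotype or age is given. Nothing in the labels says that libraries of a group came from separate cultures or animals, so each p-value measures the spread between these libraries, which may be technical.

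MHC class I molecules are a heavy chain paired with β2-microglobulin, and they show peptides from inside the cell to CD8+ T cells. The peptides are cut by the proteasome, carried into the endoplasmic reticulum by the TAP transporter and fitted into the groove with the help of tapasin and chaperones. Class II molecules meet their peptides in endosomes, where the invariant chain is removed and H2-M exchanges its remnant, and macrophages and dendritic cells use both routes.

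Promoters of class I genes are known for a shared arrangement of short elements, and the start-proximal sequence of 2 members is shown as examples of a light chain gene and a heavy chain gene. RefSeq windows (GRCm38.p6) were matched for 6 of the 9 genes, and the 250 bases before an annotated start were searched on both strands. The B2m window lies at chr2:122147437-122147686 on the plus strand, and the H2-K1 window at chr17:34000334-34000583 on the minus strand. Capitals mark every match to 4 motifs and to their reverse complements: GAAA, any 2 bases and GAAA (interferon response element-like); GGG, any 2 bases and TTCCC (kappa-B-like); TGACG; and CCAAT, and no capitals of different motifs overlap.
B2m: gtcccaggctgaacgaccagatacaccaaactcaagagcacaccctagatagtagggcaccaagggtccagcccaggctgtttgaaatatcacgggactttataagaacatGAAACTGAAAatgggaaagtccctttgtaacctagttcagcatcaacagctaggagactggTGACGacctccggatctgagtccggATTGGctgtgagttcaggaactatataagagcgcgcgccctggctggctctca
H2-K1: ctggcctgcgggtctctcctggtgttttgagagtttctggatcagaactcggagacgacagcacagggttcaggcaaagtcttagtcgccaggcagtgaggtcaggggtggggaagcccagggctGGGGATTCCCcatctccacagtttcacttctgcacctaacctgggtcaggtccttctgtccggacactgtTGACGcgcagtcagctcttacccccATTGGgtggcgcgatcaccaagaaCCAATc

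Both windows hold TGACG and, 20 bases further on, ATTGG, the reverse complement of CCAAT. The same 30-base stretch shape was present before the RefSeq start of H2-D1 (chr17:35262993-35263022, plus strand). It was also present before that of H2-M3, a further class I heavy chain gene (chr17:37270188-37270217, plus strand). The B2m stretch is at chr2:122147609-122147638 and the H2-K1 stretch at chr17:34000359-34000388. They are printed together, with both outer elements in capitals, so that the spacing can be seen.
B2m: TGACGacctccggatctgagtccggATTGG
H2-K1: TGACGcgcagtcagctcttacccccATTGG
H2-D1: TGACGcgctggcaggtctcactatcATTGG
H2-M3: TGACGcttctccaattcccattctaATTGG

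TGACG alone was found in 17.8% and CCAAT alone in 33.8% of all 32851 RefSeq windows of this length. The pair at this spacing, on either strand, was found in 30 windows or 0.0913%. These windows belong to 26 of 27025 symbols, and to 4 of the 55 antigen presentation symbols that have a window. The spacing was read off the members' own sequences, so the count describes them and tests nothing. The interferon response element-like motif, found in 2.98% of windows, had a match in the windows of B2m and H2-T23. The kappa-B-like motif, found in 1.53%, had a match in those of H2-K1 and H2-D1. H2-DMa matched CCAAT alone, in 1 of its 2 windows, and Tapbp matched CCAAT and GGGCGG, the GC box, which 32.7% of windows hold. The H2-DMa windows end at 34122831 and 34125517, well before the gene's deposited start at 34135182. The Tapbp window ends at 33919477, after that gene's deposited start at 33915899. The H2-D1 window, at 35262844 to 35263093, lies after that gene's deposited start at 35262730, so its 30-base stretch falls inside the gene as deposited. The H2-T23 window, at 36032702 to 36032951 on the minus strand, overlaps the gene, whose deposited end is 36032855. For these genes the windows therefore need not lie at the start of the gene as measured. A match to letters is a description, and binding was not measured.

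Values are FPKM, reads per kilobase of gene scaled to a library size, and levels are compared between genes on that scale only. The deposited values were rebuilt as whole reads, 14.4 M to 17.3 M per library. Per library, the size that the deposited scale implies was 0.504 ± 0.0316 of the recovered reads in the 6 libraries with D and 2.32 ± 0.0635 in the 6 without D (SD). The authors' scaling thus differs between libraries with and without D. Fold changes across D are therefore given as deposited and, for most, also with values rescaled to the recovered reads, called read totals here. Across all 8615 tested genes the median log2 fold change of NP-D@M against NP@M was 0.16 as deposited and -1.47 with read totals.

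Replicate 3 of PBS and replicate 2 of NP@M stood apart from their groups. Genes listed at 0 made up 9.31% and 9.11% of the table in them, while the remaining PBS and NP@M libraries had 2.65% to 2.96% and the 6 libraries with D had 8.94% to 13.4%. Both carried the lowest value of their group for B2m, H2-D1, H2-T23, Tap2, Tapbp, H2-DMa and Cd74. Counts of members were therefore also taken without both.

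The 4 genes for class I chains, 3 heavy and 1 light, stood 11.5-fold to 15.6-fold higher in NP-D@M than in NP@M cells in the deposited values, and 2.56-fold to 3.45-fold higher with read totals. B2m, the β2-microglobulin light chain shared by all class I heavy chains, had 8047, 5596 and 5369 FPKM in NP-D@MP libraries and 4700, 7045 and 4398 FPKM in NP-D@M libraries. It had 431, 156 and 476 FPKM in NP@M libraries and 423, 400 and 179 FPKM in PBS libraries. All 6 libraries with D were above all 6 without, on either scaling, while the groups within each kind overlapped. In NP-D@M against NP@M, 46.3% of all tested genes lay wholly higher as deposited. The share over 6 against 6 libraries, or with read totals, was not counted, here or for the genes that follow. The B2m log2 fold change of NP-D@M against NP@M was 4.04 ± 0.45 as deposited (SE, limma adjusted p = 9.33e-06) and 1.88 ± 0.47 with read totals (limma adjusted p = 0.00381).

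H2-K1 encodes H-2K, a classical heavy chain that presents peptides to CD8+ T cells. It had 253, 239 and 329 FPKM in NP-D@MP and 299, 386 and 267 FPKM in NP-D@M cells, against 24.7, 14.5 and 21.9 FPKM in NP@M and 19.6, 17.6 and 22.3 FPKM in PBS cells. The groups with D again lay wholly above the groups without. Its log2 fold change of NP-D@M against NP@M was 3.91 ± 0.24 as deposited (limma adjusted p = 1.46e-07) and 1.79 ± 0.22 with read totals (limma adjusted p = 1.86e-05). Here PBS replicate 3 was not low: it had the highest H2-K1 value of its group.

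H2-D1, the other classical heavy chain among the members, had the highest FPKM of the 3 heavy chains in every group. Its level was 1979, 1763 and 2511 FPKM in NP-D@MP and 1666, 2064 and 1470 FPKM in NP-D@M, against 191, 73.9 and 178 FPKM in NP@M and 202, 182 and 65.3 FPKM in PBS. NP-D@M lay 3.65 ± 0.45 above NP@M on the log2 scale as deposited (limma adjusted p = 1.94e-05) and 1.49 ± 0.47 with read totals (limma adjusted p = 0.0145). H2-T23 encodes Qa-1, a non-classical heavy chain that shows leader peptides of other class I chains to NK cell receptors. It had 310, 266 and 333 FPKM in NP-D@MP and 263, 292 and 211 FPKM in NP-D@M, against 27.6, 14.8 and 24.0 FPKM in NP@M and 30.1, 25.5 and 13.2 FPKM in PBS. Its difference between NP-D@M and NP@M was 3.5 ± 0.31 as deposited (limma adjusted p = 1.74e-06) and 1.38 ± 0.33 with read totals (limma adjusted p = 0.00300). For both genes no library without D reached any library with D. H2 genes share long stretches of sequence, and how the authors assigned reads that fit several of them is not given in the sources used here, so the split of reads between heavy chains is uncertain.

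**Figure D1:**
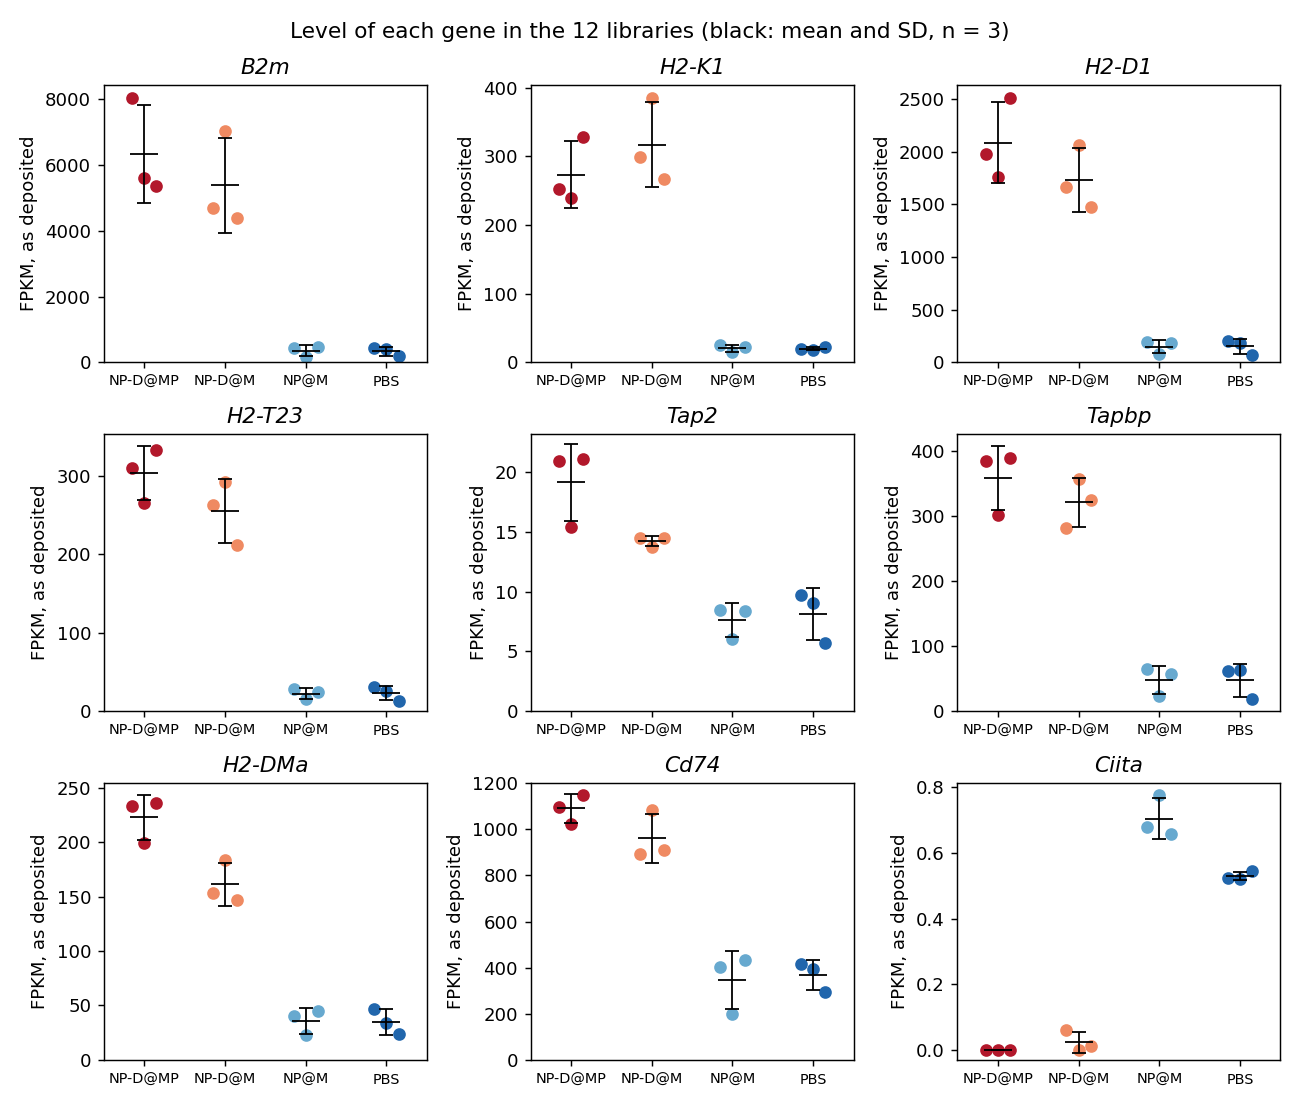
FPKM as deposited (vertical axis, linear, from 0) of the 9 genes in each of the 12 libraries, by group, with the mean and SD of 3 libraries in black. The 6 libraries with D lie above the 6 without for 8 genes, and below them for Ciita.

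Tapbp and Tap2, the members that load class I, had smaller fold changes than the 4 chain genes above. Tapbp encodes tapasin, which bridges empty class I molecules to the peptide transporter. It had 384, 302 and 388 FPKM in NP-D@MP and 281, 357 and 324 FPKM in NP-D@M, against 64.2, 23.7 and 57.0 FPKM in NP@M and 61.5, 62.9 and 18.05 FPKM in PBS. In the deposited values the groups did not overlap and the log2 fold change of NP-D@M against NP@M was 2.82 ± 0.47 (limma adjusted p = 0.000184). With read totals it was 0.67 ± 0.50 (limma adjusted p = 0.247), which did not pass.

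Tap2 encodes one subunit of the transporter that pumps peptides into the endoplasmic reticulum. It had 20.96, 15.4 and 21.1 FPKM in NP-D@MP and 14.5, 13.8 and 14.5 FPKM in NP-D@M, against 8.48, 6.01 and 8.43 FPKM in NP@M and 9.76, 9.05 and 5.68 FPKM in PBS. As deposited it was higher in NP-D@M than in NP@M by 0.83 ± 0.22 on the log2 scale (limma adjusted p = 0.00377). With read totals it was lower, at -1.15 ± 0.24 (limma adjusted p = 0.00116), with means of 7.43 ± 0.708 in NP-D@M and 17.9 ± 3.42 in NP@M (SD, n = 3 each). The direction of Tap2 therefore turned with the scaling.

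H2-DMa encodes the α chain of H2-M, which exchanges the invariant chain remnant on class II for peptide. Its level was 234, 199 and 236 FPKM in NP-D@MP and 153, 184 and 147 FPKM in NP-D@M, against 40.0, 22.5 and 45.05 FPKM in NP@M and 46.6, 34.2 and 23.5 FPKM in PBS. The 2.19 ± 0.29 log2 difference between NP-D@M and NP@M as deposited (limma adjusted p = 3.51e-05) was 0.06 ± 0.31 with read totals (limma adjusted p = 0.880). On that second scaling the NP-D@M and NP@M libraries overlapped, with means of 83.6 ± 5.78 and 83.9 ± 28.3 (SD, n = 3 each).

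Cd74, the invariant chain that escorts class II to endosomes, had 1099, 1023 and 1151 FPKM in NP-D@MP and 892, 1085 and 910 FPKM in NP-D@M. It had 405, 200 and 433 FPKM in NP@M and 415, 394 and 294 FPKM in PBS. As deposited, NP-D@M was higher than NP@M by 1.55 ± 0.28 on the log2 scale (limma adjusted p = 0.000361), and with read totals the value was -0.62 ± 0.29 (limma adjusted p = 0.0770). Against PBS the read-total value of NP-D@M was -0.74 ± 0.29 and passed (limma adjusted p = 0.0381).

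**Figure D2:**
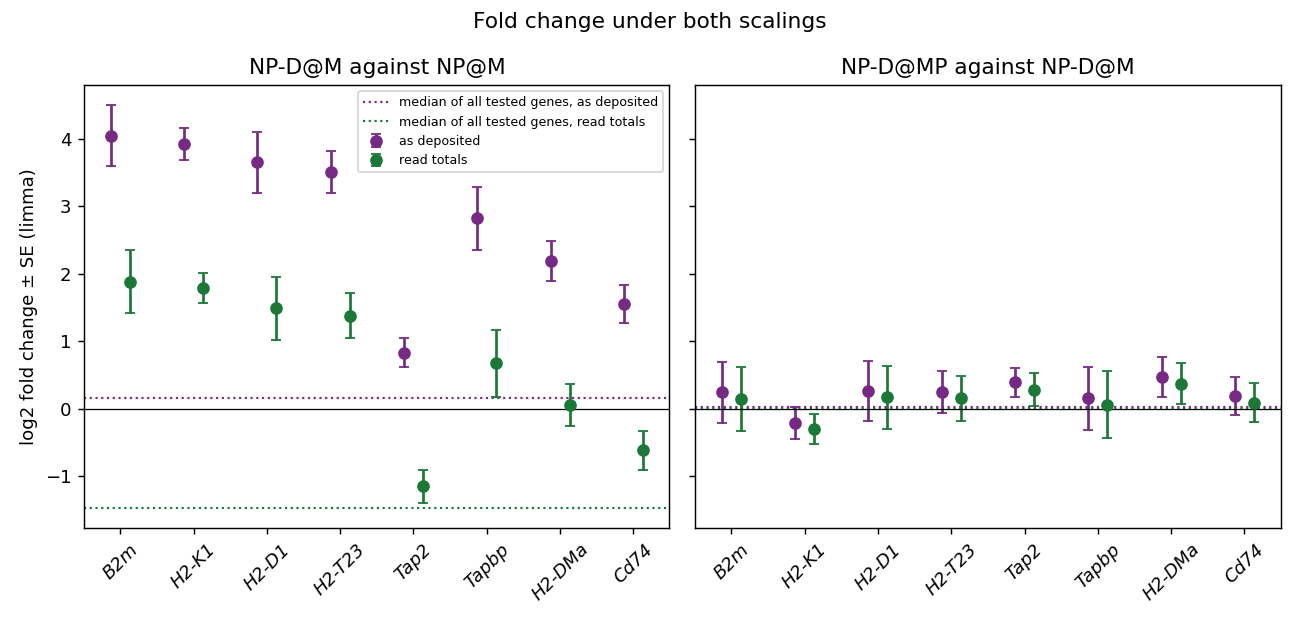
Limma log2 fold change with its SE (vertical axis) of the 8 tested genes, for NP-D@M against NP@M on the left and NP-D@MP against NP-D@M on the right, as deposited and with read totals; dotted lines mark the median of all tested genes. On the left, B2m, H2-K1, H2-D1 and H2-T23 lie above 0 under both scalings, and Tap2 and Cd74 lie above 0 under one and below it under the other.

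In NP-D@M against NP@M, all 8 tested members were called higher as deposited, where 45.2% of all tested genes were called higher and 91.2% were called in either direction. Their groups did not overlap either, as held for 46.3% of all tested genes in this direction and 46.7% in the other. Their median log2 fold change was 3.16, beside 0.16 for all tested genes. The latter covers genes of all levels, and members were not compared with genes of like level. Deposited FPKM summed to 932719 to 1118640 per library with D and 119995 to 167025 without D. The median over genes was 0.919 to 1.03 FPKM with D and 2.05 to 2.12 FPKM without D. With read totals 70.8% of all tested genes were called. Of the 8 members 4 were called higher, where 9.12% of all tested genes were, and 1, Tap2, was called lower, where 61.7% were. The 4 were B2m, H2-K1, H2-D1 and H2-T23, and the median of the 8 was 1.03 beside -1.47 for all tested genes. A voom fit on the recovered reads called the same 4 higher and Tap2 lower, where 8.76% and 61.2% of all tested genes were. Quantile normalization ended the call of B2m, whose log2 fold change was 0.81 (limma adjusted p = 0.0645). It left H2-K1, H2-T23 and H2-D1 higher, where 34.7% of all tested genes were, and Cd74 lower, where 33.9% were. Without PBS replicate 3 and NP@M replicate 2, 8 of 8 were called higher as deposited, with log2 fold changes between 0.69 for Tap2 and 3.70 for H2-K1.

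Markers of other cell types were summed beside this result. The 15 monocyte and macrophage markers came to 36641 to 38844 FPKM in NP-D@MP and 31305 to 41983 FPKM in NP-D@M libraries, against 2884 to 3525 FPKM in NP@M and 2926 to 4225 FPKM in PBS libraries. Most of this sum was Lyz2, at 27281 FPKM on average in NP-D@M and 2158 FPKM in NP@M. Of 14 tested, 13 were higher and 1 lower in NP-D@M than in NP@M as deposited, and 7 were higher and 3 lower with read totals. Beside these counts and the next ones, 45.2% of all tested genes were higher and 46% lower as deposited, and 9.12% and 61.7% with read totals. The 8 dendritic cell markers found, of 10 looked for, summed to 485 to 604 FPKM in NP-D@MP, 553 to 715 FPKM in NP-D@M, 89.8 to 114 FPKM in NP@M and 81.6 to 99.6 FPKM in PBS. Nearly all of this sum was Itgax, an integrin gene that macrophages also express, at 634 FPKM on average in NP-D@M and 83.9 FPKM in NP@M. Of 6 dendritic cell markers tested, 2 were higher and 3 lower in NP-D@M than in NP@M as deposited, and 1 was higher and 3 lower with read totals. Ccr7, the receptor of migrating dendritic cells, averaged 0.493 FPKM in NP-D@M and 10.4 FPKM in NP@M. The 4 megakaryocyte and platelet markers found, of 6, summed to 25737 to 28667 FPKM in NP-D@MP and 20396 to 26100 FPKM in NP-D@M, against 484 to 1198 FPKM in NP@M and 520.0 to 1211 FPKM in PBS. Nearly all of these sums came from the chemokine genes Pf4 and Ppbp. Itga2b and Gp9 averaged 6.46 and 0.882 FPKM in NP-D@M, and 2.69 and 0.0616 FPKM in NP@M. Of these 4 markers, 4 were higher and 0 lower in NP-D@M than in NP@M as deposited, and 2 were higher and 1 lower with read totals. The 14 neutrophil markers found, of 16, summed to 5639 to 8162 FPKM in NP-D@MP and 5345 to 7686 FPKM in NP-D@M, against 1610.2 to 2301 FPKM in NP@M and 2156 to 2570 FPKM in PBS. The largest part of these sums was Mmp8, at 4507 FPKM on average in NP-D@M and 635 FPKM in NP@M. As deposited 5 of these 14 were higher and 4 lower in NP-D@M than in NP@M, and with read totals 0 were higher and 12 were lower. For B cells, which also carry class II, 2 of 7 markers were found, with sums between 1.87 and 6.84 FPKM over all libraries. For T and NK cells 2 of 10 were found, with sums between 0.139 and 3.76 FPKM, and for erythroid cells 0 of 7. In bulk RNA, fewer cells of a type and less RNA per cell cannot be told apart, and the part of cell composition in these results was not tested.

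NP-D@MP was also set against PBS. All 8 tested members were higher as deposited, where 45.7% of all tested genes were called higher and 91.5% in either direction. B2m led at 4.32 ± 0.45 on the log2 scale (limma adjusted p = 5.75e-06), with 6337 ± 1485 FPKM in NP-D@MP and 334 ± 135 FPKM in PBS (SD, n = 3 each). H2-D1 followed at 3.93, H2-T23 at 3.74 and H2-K1 at 3.71, then Tapbp at 3.07, H2-DMa at 2.70, Cd74 at 1.58 and Tap2 at 1.15. The chains of class I thus came before the loading and class II genes in this comparison too, which shares no library with NP-D@M against NP@M. With read totals 71.4% of all tested genes were called. Then 4 members were higher, where 9.01% of all tested genes were, and Tap2 was lower, where 62.4% were, at -0.91 ± 0.24 (limma adjusted p = 0.00520). Tapbp, Cd74 and H2-DMa, the last at 0.49, were not called with read totals. The 4 called higher were again B2m at 2.08, H2-D1 at 1.70, H2-T23 at 1.54 and H2-K1 at 1.52. With quantile normalization those 4 were called higher, where 34.6% of all tested genes were, and Cd74 lower, where 33.7% were. Without the 2 libraries that stood apart, 8 of 8 were higher as deposited, between 0.94 for Tap2 and 3.92 for B2m. NP-D@M against PBS reuses libraries of the other comparisons. It called 8 of 8 higher as deposited, where 44.6% of all tested genes were called higher, 45.8% lower and 90.4% in all. With read totals it called 4 higher, where 8.94% of all tested genes were, and Tap2 and Cd74 lower, where 61.6% were, of 70.6% called in all. With quantile normalization it called the 4 class I chain genes higher, where 34.3% of all tested genes were, and Cd74 lower, where 33.5% were.

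A ratio between genes of the same library does not depend on the scaling between libraries. Each member was expressed as a percentage of B2m in its own library, and the 6 libraries with D were compared with the 6 without by an exact two-sided permutation test of the mean log2 ratio, adjusted over 7 ratios. The smallest p this design can give is 0.00216. H2-K1 stood at 5.24 ± 1.28% of B2m with D and at 6.85 ± 3.31% without D (SD, n = 6 each), a log2 difference of -0.31 ± 0.30 (SE) that did not pass (exact permutation, adjusted p = 0.331). Without PBS replicate 3 and NP@M replicate 2 the H2-K1 difference was 0.08, on the other side of 0 (exact permutation, adjusted p = 0.771). H2-T23 stood at 4.89 ± 0.883% with D and 6.96 ± 1.47% without (exact permutation, adjusted p = 0.0152). H2-D1 stood at 33.5 ± 7.49% with D and 43.1 ± 4.95% without (exact permutation, adjusted p = 0.0253). The log2 differences were -0.50 for H2-T23 and -0.38 for H2-D1, and neither passed once PBS replicate 3 and NP@M replicate 2 were left out (exact permutation, adjusted p = 0.0556 for H2-T23 and 0.0533 for H2-D1). Leaving out NP-D@MP replicate 1, NP@M replicate 2 or PBS replicate 1 alone also ended the call of H2-D1 (exact permutation, adjusted p = 0.0505 each time).

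The loading and class II genes departed further from B2m. Tapbp was at 5.96 ± 1.11% of B2m with D and 13.7 ± 2.21% without D, a log2 difference of -1.21 ± 0.15. H2-DMa was at 3.35 ± 0.617% with D and 10.97 ± 2.33% without, a difference of -1.71 ± 0.16. Cd74 was at 18.1 ± 3.02% with D and 112 ± 28.8% without, a difference of -2.62 ± 0.17. Tap2 was at 0.294 ± 0.0671% with D and 2.56 ± 0.796% without, a difference of -3.10 ± 0.22. For these 4 genes the libraries with D and without D did not overlap, and the p was the smallest that the design allows (exact permutation, adjusted p = 0.00379). B2m was itself 15.2-fold higher in NP-D@M than in NP@M as deposited, while the median log2 fold change of all tested genes was 0.16. Any gene that rose less than B2m falls in this ratio. How many of all tested genes separate in it was not counted, so the separation is not shown to be particular to these 4. Set against the median of all tested genes, their differences with D minus without D were all positive, the lowest being 1.61 for Tap2. The order of the ratios to B2m, from H2-K1 to Tap2, shows unequal change between genes of a library, and shows no single gene as unchanged.

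**Figure D3:**
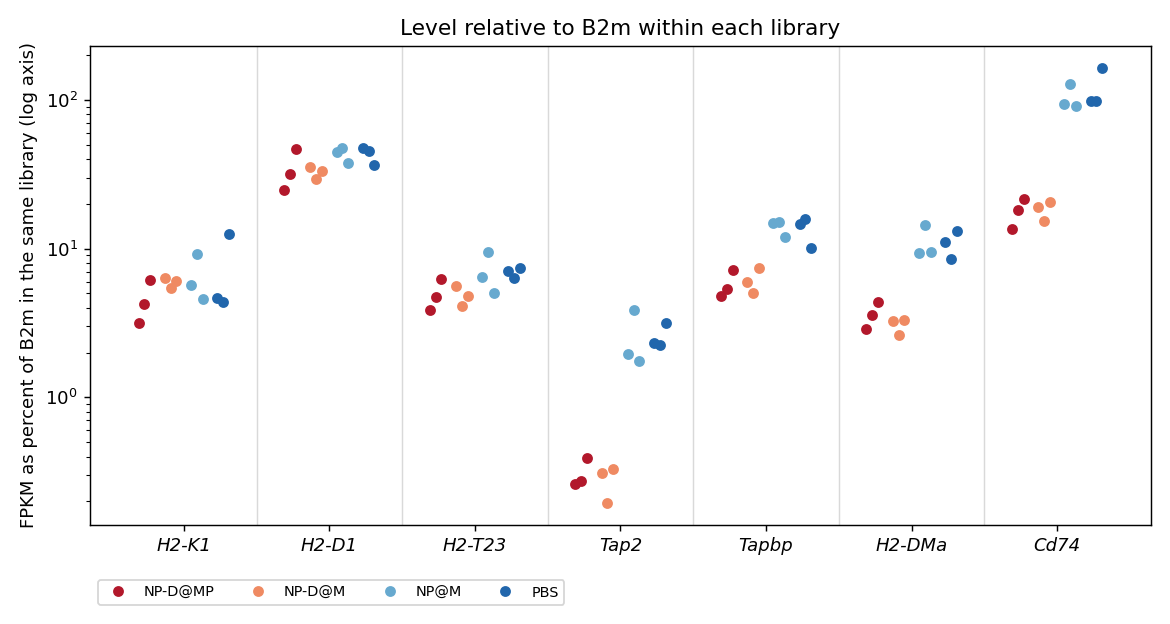
FPKM of each gene as a percentage of B2m in the same library (vertical axis, log scale), 3 libraries per group. For Tapbp, H2-DMa, Cd74 and Tap2 every library with D lies below every library without D, while H2-K1 libraries of both kinds overlap.

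Levels were also ranked within each library, from 1 for the gene with the highest FPKM of the table. Mean ranks were 22.3 with D and 51.2 without D for B2m, 67.5 and 163 for H2-D1, 387 and 1084 for H2-K1, and 400 and 1006 for H2-T23. Cd74 went the other way, at a mean rank of 124 with D and 43.7 without D, and no library with D ranked it as high as any library without D. Tapbp stood at 345 with D and 556 without, H2-DMa at 516 and 638, and Tap2 at 2155 and 2551, each with overlapping libraries. How many of all genes separate in rank between libraries with and without D was not counted. A separation in rank is therefore not shown to be particular to any member. In PBS cells the order of mean FPKM was Cd74, B2m, H2-D1, Tapbp, H2-DMa, H2-T23, H2-K1, Tap2 and Ciita, and in NP@M cells B2m and Cd74 changed places within overlapping ranges. In both groups with D the order began with B2m, H2-D1 and Cd74, without overlap between these 3. There Tapbp, H2-T23 and H2-K1 followed with overlapping neighbours, then H2-DMa, Tap2 and Ciita.

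**Figure D4:**
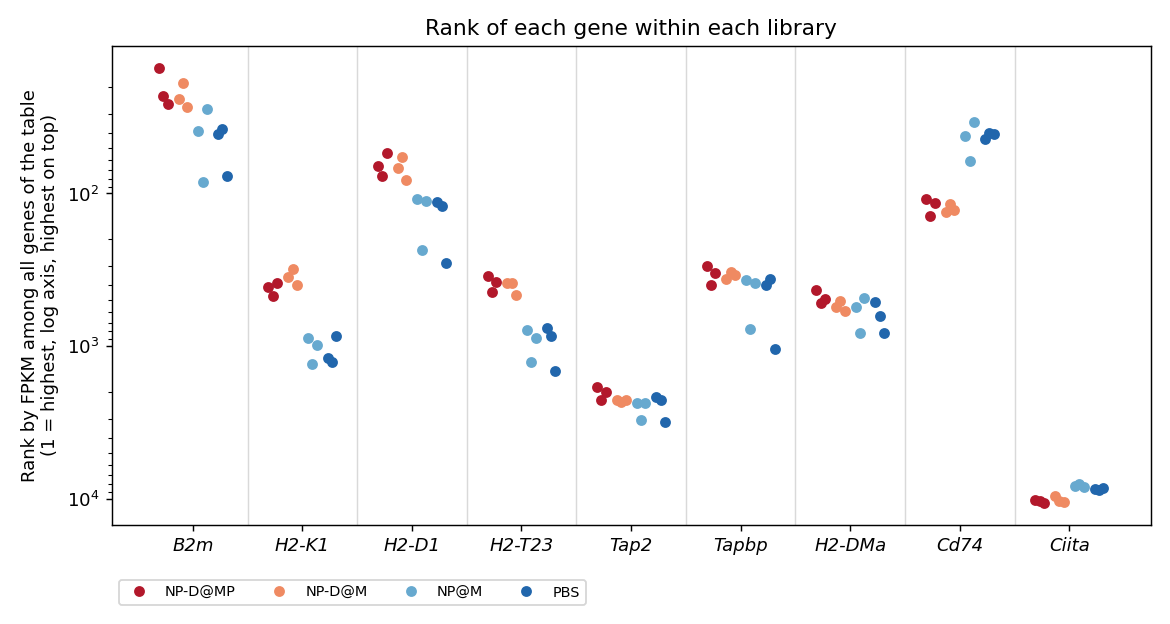
Rank of each gene by FPKM within its library (vertical axis, log scale, rank 1 on top), 3 libraries per group. The class I chains rank higher in libraries with D, Cd74 ranks lower in all 6 of them, and Tap2, Tapbp and H2-DMa overlap.

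Together the 9 genes took 0.758 ± 0.0942% of the recovered reads in NP-D@MP and 0.693 ± 0.0894% in NP-D@M, against 0.362 ± 0.146% in NP@M and 0.361 ± 0.132% in PBS (SD, n = 3 each). The lowest libraries without D were NP@M replicate 2 and PBS replicate 3, at 0.193% and 0.210%.

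P was the only named difference between NP-D@MP and NP-D@M. None of the 8 tested members passed the test there with limma, either as deposited or with read totals, 0 of 8 had an unadjusted p under 0.05 on either scaling, and 0% of all tested genes were called, with 428 of 8615 at an unadjusted p under 0.05 as deposited. A voom fit on the recovered reads also called 0 of 8, and 0.0116% of all tested genes. H2-K1 was the only one of the 8 with a negative estimate, a log2 difference of -0.21 with a 95% interval of -0.73 to 0.31. H2-DMa had the largest estimate at 0.47, with an interval of -0.17 to 1.11, and Tap2 was next at 0.39, with an interval of -0.09 to 0.87. Both genes had every NP-D@MP library above every NP-D@M library in the deposited values, as did 8.58% of all tested genes, while 6.14% lay wholly lower. For B2m the estimate was 0.24 with an interval of -0.75 to 1.24, for H2-D1 0.26 with -0.73 to 1.25, and for H2-T23 0.25 with -0.43 to 0.94. Tapbp had 0.16 with -0.87 to 1.19, and Cd74 had 0.19 with -0.44 to 0.81. The intervals show the sizes that 3 libraries a group could not tell from 0.

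NP@M was likewise set against PBS, both without D. Again 0 of 8 members passed under limma, 0 of 8 had an unadjusted p under 0.05, and 0.0116% of all tested genes were called, with 27 at an unadjusted p under 0.05. A voom fit called 0 of 8 and 0% of all tested genes. The log2 differences lay between -0.15 for Cd74 and 0.10 for Tapbp over all libraries. They turned on the 2 libraries that stood apart: B2m was at 0.54 without NP@M replicate 2 and at -0.37 without PBS replicate 3, and Tapbp at 0.54 and -0.48. H2-D1 was at 0.46 and -0.49, and no leave-out gave a call. The widest interval was that of Tapbp, -0.93 to 1.13, and the narrowest that of Tap2, -0.55 to 0.41. Mean levels were 354 ± 173 FPKM in NP@M and 334 ± 135 FPKM in PBS for B2m, and 20.4 ± 5.29 FPKM in NP@M and 19.8 ± 2.37 FPKM in PBS for H2-K1 (SD, n = 3 each).

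Ciita, the class II transactivator that switches on class II genes, Cd74 and H2-DMa included, was the one member lower with D under both scalings. It had 0, 0 and 0 reads in NP-D@MP and 5, 0 and 1 reads in NP-D@M, against 229, 260 and 236 reads in NP@M and 172, 189 and 164 reads in PBS. In FPKM these are 0 in all NP-D@MP libraries, 0.0242 ± 0.0322 in NP-D@M, 0.704 ± 0.0625 in NP@M and 0.529 ± 0.0128 in PBS (SD, n = 3 each). No library with D came near any without D. Of all tested genes, 46.7% lay wholly lower in NP-D@M than in NP@M as deposited. Called lower were 46% as deposited and 61.7% with read totals. These shares are of genes past the filter, and none was counted for the fit without it. Ciita stayed under the filter, and in the fit with no filter its log2 fold change of NP-D@M against NP@M was -0.73 ± 0.06 as deposited (limma adjusted p = 2.17e-06) and -1.38 ± 0.09 with read totals (limma adjusted p = 9.83e-08). The pseudocount of 1 compresses this difference. NP-D@M held 6 reads in all, 5 of them in replicate 1, against 725 in NP@M, so no fold is given. Against PBS, NP-D@MP was at least 13.9-fold lower as deposited and at least 65.4-fold lower with read totals, taking 3 reads per library as the limit that a count of 0 allows, for counting error only. All 3 NP@M libraries were above all 3 PBS libraries, as 1.74% of tested genes were (1.14% lay wholly lower), and the difference did not pass (limma adjusted p = 1, unadjusted p = 0.0335).

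The wider antigen presentation pathway was described with a list of 62 other symbols, of which 46 were found and 40 tested. In NP-D@M against NP@M, 26 were higher, 11 lower and 3 not called as deposited, with a median log2 fold change of 1.60, and 11 were higher, 15 lower and 14 not called with read totals, with a median of -0.04. Over all tested genes 45.2% were higher and 46% lower as deposited, with a median of 0.16, and 9.12% were higher and 61.7% lower with read totals, with a median of -1.47. Among the list, 7 regulators and 2 ligases reached the filter only in libraries without D, and 2 heavy chains, H2-Q7 and H2-T10, only in libraries with D. Such a gene had to differ, so these counts and medians describe the genes that passed and support nothing about the list. The 8 tested members reached the filter in both kinds of library. In NP-D@MP against NP-D@M and in NP@M against PBS, limma called 0 of 40 and 0 of 40 had an unadjusted p under 0.05. The fold changes named next are those of NP-D@M against NP@M.

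Of the 8 further class I heavy chain genes tested, 6 reached the filter in both kinds of library. These 6 were higher as deposited, where 45.2% of all tested genes were, and 4 were with read totals, where 9.12% were. The remaining genes, H2-Q7 and H2-T10, reached the filter only in libraries with D, so that they came out higher was largely set by the filter. H2-M3, which presents peptides that begin with formylmethionine, had 40.7 ± 4.74 FPKM in NP-D@M and 4.13 ± 0.296 FPKM in NP@M. Its log2 fold change was 3.02 as deposited and 1.06 with read totals (limma adjusted p = 6.90e-05). H2-T22, a ligand of γδ T cell receptors, gave 2.88 and 0.87, and H2-Q6, a Qa-2 chain, gave 2.77 and 1.09. H2-Q4, also a Q-region gene, passed as deposited at 2.59 but had 0.60 (limma adjusted p = 0.166) with read totals. H2-Q7, a Q-region gene that reached the filter only with D, had 1.15 as deposited and 0.38 with read totals, which did not pass (limma adjusted p = 0.202). As between the members, reads shared by these heavy chains make the split uncertain.

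The 5 class I-like genes were all higher as deposited, where 45.2% of all tested genes were, and 2 were with read totals, where 9.12% were. Hfe, which pairs with B2m and regulates iron uptake, had 35.9 ± 5.47 FPKM in NP-D@M and 2.23 ± 1.07 FPKM in NP@M, with log2 fold changes of 3.56 as deposited and 1.75 with read totals. Cd1d1, which presents lipids to NKT cells, had 2.74 and 0.99. Procr, the protein C receptor, had 3.02 as deposited and 1.00 with read totals, the second of which did not pass (limma adjusted p = 0.0655). Fcgrt, the neonatal Fc receptor, had 2.54 and 0.51, and Mr1, which presents vitamin metabolites to MAIT cells, had 1.63 and -0.04. The read-total values of both did not pass (limma adjusted p = 0.272 for Fcgrt and 0.894 for Mr1).

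Among 7 genes of peptide supply and loading, 5 were higher and 2 lower as deposited, where 45.2% and 46% of all tested genes were. With read totals 2 were higher and 3 lower, where 9.12% and 61.7% of all tested genes were. The chaperones Calr (calreticulin) and Pdia3 (ERp57), partners of tapasin in the loading complex, had 3.5 and 3.13 as deposited and 1.34 and 0.98 with read totals, all past the threshold. Canx, the chaperone calnexin, had 2.09 as deposited and -0.05 with read totals (limma adjusted p = 0.894). Tapbpl, a tapasin-related peptide editor, had 1.31 as deposited and -0.67 with read totals (limma adjusted p = 0.0239), so its direction turned. The aminopeptidases Npepps and Lnpep fell by 1.43 and 1.51 as deposited and by 3.37 and 3.10 with read totals.

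Of 4 proteasome genes, 3 were higher as deposited, beside 45.2% of all tested genes, and 0 with read totals, beside 9.12%. Psme1 and Psme2, the subunits of the PA28 activator, had 2.38 and 2.98 as deposited, and 0.26 (limma adjusted p = 0.341) and 0.92 (limma adjusted p = 0.257) with read totals. Psmb8, an interferon-inducible catalytic subunit, had 1.17 (limma adjusted p = 0.04998, just under the threshold) and -0.87 (limma adjusted p = 0.195). Psmb10, another such subunit, did not pass either way, at 1.11 (limma adjusted p = 0.0619) and -0.95 (limma adjusted p = 0.160).

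In the class II group of 5 genes, 4 were higher as deposited, beside 45.2% of all tested genes. With read totals 3 were higher and 1 lower, beside 9.12% and 61.7%. The 3 are lysosomal enzymes. Lgmn, asparagine endopeptidase, had 1575 ± 288 FPKM in NP-D@M and 81.4 ± 16.2 FPKM in NP@M, with log2 fold changes of 4.26 and 2.11 on the deposited and read-total scales. Ctss, the cathepsin that trims the invariant chain, had 3.72 and 1.55, and Ifi30, a thiol reductase of endosomes, had 3.62 and 1.46. The class II β chain gene H2-Ab1 behaved otherwise, with 24.0 ± 2.95 FPKM in NP-D@M and 13.4 ± 6.60 FPKM in NP@M. Its value was 0.93 as deposited (limma adjusted p = 0.0508) and -1.11 with read totals, where it passed (limma adjusted p = 0.0452). H2-Oa, a chain of the H2-O inhibitor of H2-M, had 1.44 as deposited and -0.24 with read totals (limma adjusted p = 0.471).

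Regulators of MHC transcription had low levels in libraries with D. Of the 8 tested and reported here, 7 reached the filter only in libraries without D, so that they came out lower was largely set by the filter, and no count of them is given. The exception, Nfyc, reached it in both kinds of library. Nfya, the DNA-contacting subunit of the CCAAT-binding factor NF-Y, had 0.290 ± 0.1203 FPKM in NP-D@M and 7.24 ± 0.586 FPKM in NP@M. Nfyb, another NF-Y subunit, had 0.339 ± 0.342 FPKM in NP-D@M and 1.70 ± 0.406 FPKM in NP@M. Nfya and Nfyb reached the filter only in libraries without D, so no fold change is given for them. The third subunit, Nfyc, had a log2 fold change of -0.80 as deposited and -2.51 with read totals. Of all tested genes 46% were called lower as deposited and 61.7% with read totals.

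Rfxap and Rfxank encode subunits of RFX, which binds class II and class I promoters. Rfxap had 0 reads in all 3 NP-D@M libraries and 111 to 168 reads in NP@M libraries, and Rfxank had 0 to 18 reads in NP-D@M and 123 to 223 reads in NP@M. Both reached the filter only in libraries without D, so no test result is given for them. Irf1, an interferon-induced activator of class I genes, had 0.339 ± 0.322 FPKM in NP-D@M and 5.72 ± 1.06 FPKM in NP@M. Irf2, which shares its binding site, had 0.580 ± 0.367 FPKM in NP-D@M and 3.89 ± 0.152 FPKM in NP@M. Irf8, a myeloid factor, had 0.665 ± 0.199 FPKM in NP-D@M and 8.61 ± 2.03 FPKM in NP@M. Irf1, Irf2 and Irf8 too reached the filter only in libraries without D, so no fold change is given for them. The 3 regulators that stayed under the filter with Ciita were Nlrc5, Rfx5 and Creb1. Nlrc5, the class I transactivator, had 15 to 24 reads in NP-D@M and 120 to 263 reads in NP@M libraries, or 0.263 ± 0.0491 and 0.576 ± 0.265 FPKM.

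Ubiquitin ligases that remove MHC molecules from the surface were the last role, and 3 were tested. March1 and March9 reached the filter only in libraries without D, so that they came out lower was largely set by the filter. March1, which acts on class II, fell by 2.16 as deposited and by 3.49 with read totals. March8 had 0.80 as deposited and -1.07 with read totals, passing both ways in opposite directions. March9 had -0.58 as deposited, which did not pass (limma adjusted p = 0.0784), and -1.59 with read totals.

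**Figure D5:**
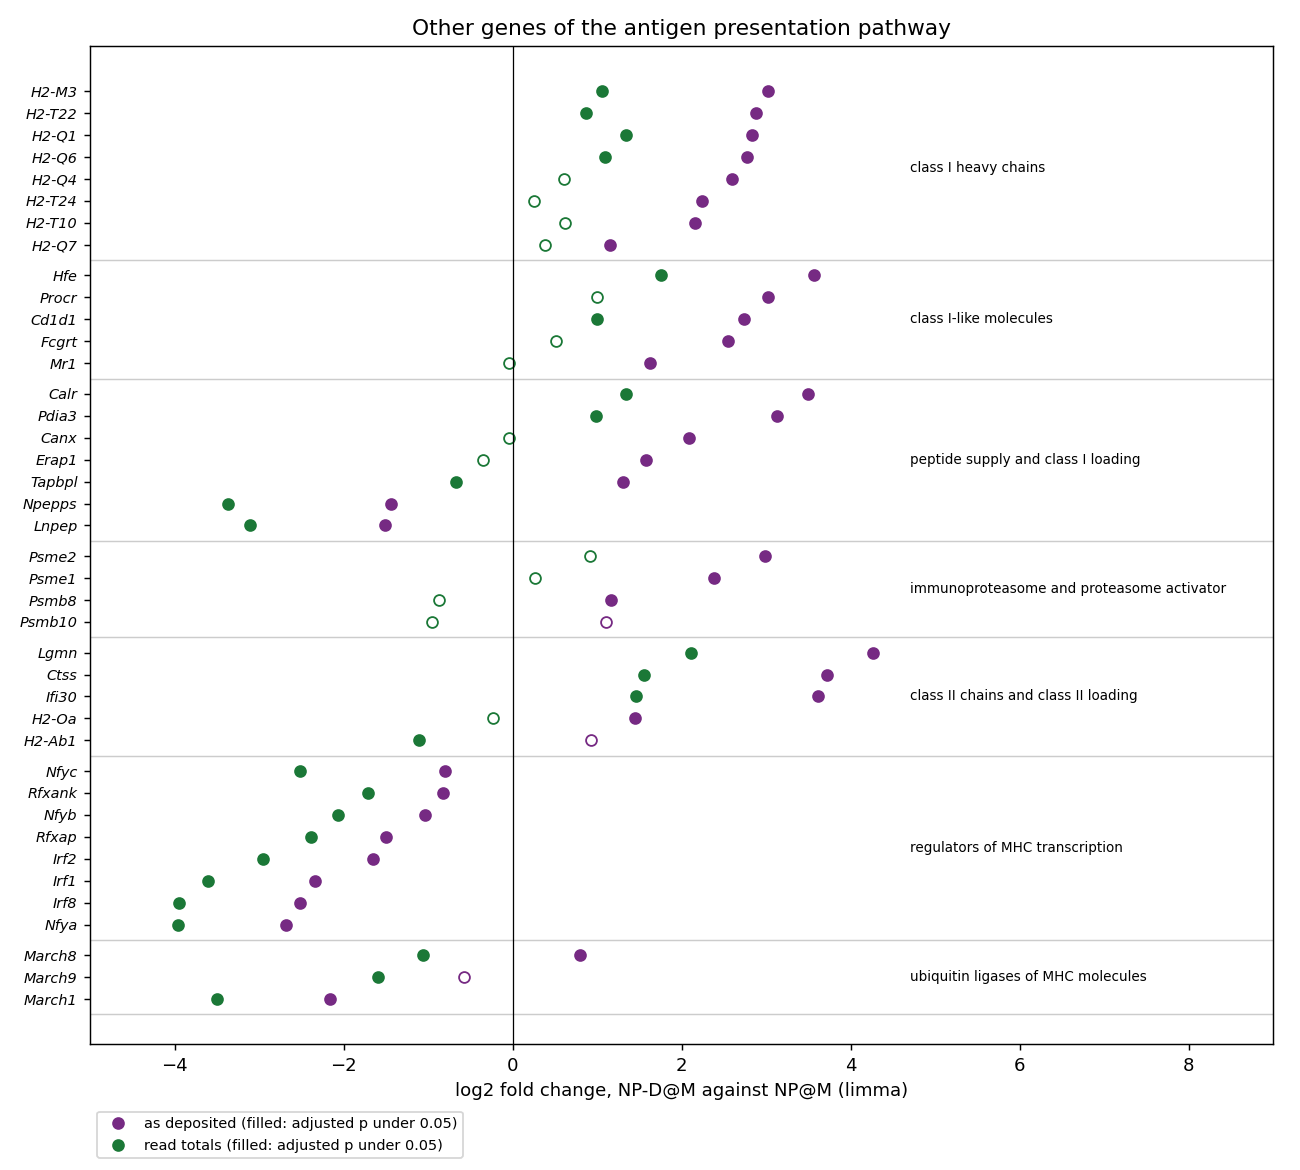
Limma log2 fold change of NP-D@M against NP@M (horizontal axis) for 40 other antigen presentation genes, by role, as deposited and with read totals; filled points had an adjusted p under 0.05. The further class I heavy chains lie above 0 under both scalings, and 2 of them reached the filter only in libraries with D. Of the regulators 7, and of the ligases 2, reached the filter only in libraries without D.

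In NP-D@MP against NP-D@M none of these 40 genes passed. Fcgrt had the largest estimate among them, 0.62 ± 0.36 on the log2 scale, with 76.6 ± 9.54 FPKM in NP-D@MP and 49.4 ± 6.34 FPKM in NP-D@M (SD, n = 3 each). Its libraries did not overlap, and it was the 1 gene of the 40 that lay wholly higher, while 0 lay wholly lower. Of all tested genes 8.58% lay wholly higher and 6.14% wholly lower. Irf8 had 0.41, H2-Oa -0.40, Psme2 -0.44, Psmb10 0.38, H2-Ab1 0.31 and Lgmn 0.32. Psme2 was the lowest of the 40.

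Position was compared as well. Of the 9 genes, 6 lie on chromosome 17 in the MHC, from Tapbp to H2-T23, at 33915899 to 36032855 on the coordinates of the table, which overlap those of GENCODE M21 (GRCm38) for 99.8% of 11659 matched identifiers. B2m is on chromosome 2, Ciita on chromosome 16 and Cd74 on chromosome 18. Between Tapbp and H2-T23 the table holds 76 other genes, 65 of them tested. In NP-D@M against NP@M, 33 were higher, 21 lower and 11 not called as deposited, with a median of 0.93, and 6 were higher, 31 lower and 28 not called with read totals, with a median of -0.87. The shares higher, 33 and 6 of 65, stand beside 45.2% and 9.12% of all tested genes, and the shares lower, 21 and 31 of 65, beside 46% and 61.7%.

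Genes with the most similar pattern over the 12 libraries were found by the root mean square distance of log2(FPKM + 1), each gene centred on its own mean, among 3495 candidates with a mean of at least 5 FPKM. B2m lay closest to Cd68, Ctsd and Ifi30, at 0.183, 0.198 and 0.243, and its nearest heavy chain, H2-D1, came in place 12. H2-K1 lay closest to Fam96a, Hsbp1 and Mfge8, at 0.187, 0.217 and 0.218. H2-T23 lay closest to Ergic3, Gng5 and Dap, at 0.0954, 0.129 and 0.131. H2-DMa lay closest to Vps28, Ucp2 and Prkcsh, at 0.123, 0.130 and 0.143, and B2m was in place 2159 of its list. The distances were taken on deposited values, in which the scaling between libraries with and without D is part of every pattern.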

How the data were processed

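RNA-seq of 12 mouse libraries, 3 in each of 4 groups, was used as the authors' deposited table of 11669 genes. Its header names no unit. The deposited values were taken as FPKM because value times gene length gave whole multiples of 1 step per library, within 0.05, for 100% of values. Bowtie 0.12.2 and build mm8 are listed in the submitters' processing notes, without their role, and the table's coordinates overlap those of GRCm38; the authors' scaling and their handling of shared reads are not given in the sources used here. The whole reads came to 14.4 M to 17.3 M per library, which limits low genes such as Ciita.

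Group means of log2(FPKM + 1) were fitted over all 12 libraries with limma 3.58.1 in R 4.3.3 (trend and robust), for genes with at least 1 FPKM in at least 3 libraries, with Benjamini-Hochberg adjustment over 8615 genes and a threshold of 0.05. Fold changes of low genes are understated by the pseudocount. Ratios to B2m were tested by exact permutation (scipy 1.17.1). The code was tested on simulated data. Alternatives were the scaling (read totals, equal medians, quantile), the filter, the pseudocount, the moderation, the libraries in the fit, voom on recovered reads, and libraries left out. Named genes are the members, up to 3 genes per role with the smallest adjusted p in NP-D@M against NP@M and in NP-D@MP against NP-D@M, each tested regulator reported here, and the 3 nearest genes of 4 members; Npepps and 3 untested regulators are named beyond this rule, after their values were seen. The fit of Ciita with no filter and read totals together was chosen after seeing the data. 1 gene of the list of regulators is not reported here and is left out of the counts of that list. The members and lists were chosen with earlier results of these data known. Sequences are from RefSeq (GRCm38.p6).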

Additional observations from a re-analysis of the deposited data

How the results depend on the processing

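No paired analysis was possible because the labels number the libraries N1 to N12 and give groups no shared replicate numbers. As deposited, 8 of 8 members were called in NP-D@M against NP@M, and 5 were with read totals, 4 with quantile normalization and 5 with voom on recovered reads. In NP-D@M against PBS, 5 were called with quantile normalization. In NP-D@MP against PBS, 5 were called with read totals and 5 with quantile normalization. Direction turned for 2 members. Cd74 was at -0.62, -1.32 and -0.62 in NP-D@M against NP@M with read totals, quantile normalization and voom. It was at -0.74, -1.41 and -0.74 in NP-D@M against PBS and at -0.65, -1.35 and -0.66 in NP-D@MP against PBS. Tap2 was at -1.15, -1.20 and -0.91 in these comparisons with read totals, and at -1.25, -1.30 and -0.98 with voom. Set against the median of all tested genes in place of B2m, the ratios with D minus without D were 4.40 for H2-K1, 4.20 for H2-T23, 3.0 for H2-DMa, 4.32 for H2-D1, 1.61 for Tap2, 3.5 for Tapbp and 2.09 for Cd74, above 0 because the denominator differs. Without PBS replicate 3 and NP@M replicate 2, H2-T23 was at -0.36, H2-D1 at -0.41 and H2-K1 at 0.08. Leaving out 1 library at a time moved the H2-D1 ratio between -0.49 and -0.30, and kept 8 members called in each comparison across D and 36 to 40 of the other pathway genes in NP-D@M against NP@M. The remaining alternatives left the counts within 1.5 times. Which scaling matches RNA per cell was not tested.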
